A study of Mus musculus with 33 samples.

Results

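The structural genes of central myelin were examined in the frontal cortex of young mice whose mothers, and then they themselves, had breathed e-cigarette aerosol or filtered air. The set was chosen by symbol and held 8 genes: Mbp, Mog, Mag, Mobp, Cnp, Cldn11, Mal and Ugt8a. All 8 were found among the 23366 rows of each table of read counts, and all 8 passed the filter on low counts in both tables.

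Myelin is the stack of membrane that oligodendrocytes wrap around axons in the brain and spinal cord, and it lets nerve impulses travel fast along the axon. Mature oligodendrocytes make its proteins and its lipids together during the first weeks after birth in rodents, when the forebrain myelinates. White matter and deep structures of the forebrain hold far more of it than the upper layers of cortex.

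Each sample was bulk RNA from the frontal cortex of 1 C57BL/6 offspring aged about 1 month, with no genetic alteration named for any group. Pregnant dams, and later dams with their litters, were exposed in daily sessions, with a separate chamber for each treatment. They received filtered air, aerosol from nicotine cartridges (13 to 16 mg/mL) or aerosol from cartridges without nicotine. Only 1 pup came from each litter. The female table held 6 air, 5 nicotine and 5 no nicotine libraries, and the male table held 6, 6 and 5. Since each treatment had its own chamber, chamber and treatment cannot be told apart, and since females and males were prepared and sequenced in separate batches, sex and batch cannot be told apart either. Counting totals ran from 19150562 to 27513174 per library in the female table and from 17845672 to 24787955 in the male table.

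The labels were checked with sex-linked transcripts. The library labelled male nicotine 21 held 215 CPM (counts scaled to the size of the library) of Xist, the RNA of the inactive X chromosome, and 1 count over the Y-linked genes examined. The other 16 male libraries held at most 0.253 CPM of Xist and between 2140 and 3247 Y-linked counts, whereas the 16 female libraries held 119 to 156 CPM and at most 3 counts. Values in the male table include this library unless stated, and the tests of the 8 genes and the counts over lists were repeated without it.

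Positions are those of mm9, the mouse build to which the submitters mapped the reads (GENCODE vM1 annotation). Mobp, a basic protein of oligodendrocyte myelin, lay on the forward strand at chr9:120058860-120090602. Mog and Mag, which encode glycoproteins of the myelin surface and of the membrane facing the axon, lay on the reverse strand at chr17:37147691-37160343 and chr7:31684202-31699851. Cnp lay at chr11:100436218-100453043 on the forward strand, and its exons overlapped those of Dnajc7 on the opposite strand, so that without strand reads from the overlap cannot be assigned to either gene. Cldn11 lay at chr3:31048868-31063246 (forward), Mal at chr2:127458962-127482431 (reverse) and Ugt8a at chr3:125568277-125641468 (reverse). Of all stretches of 50 bases in the protein-coding transcripts of these genes, 0.354% for Mbp and 0.108% for Mobp also occurred in transcripts of other genes, and 0 for the remaining 6.

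Promoter sequence is shown for the 4 genes whose 250 bases upstream of the start held a match to a motif searched for, because the 8 genes moved together. The motifs, searched on both strands, were CTGGCAC and CTGGTAC, forms of the sequence bound by the oligodendrocyte factor MYRF, ACAAAG, a core of SOX factor sites, and CAGCTG, an E-box; capitals mark a match, which is a match of letters and not a measured binding site. Sequences and positions are from RefSeq on GRCm38.p6 and read 5′ to 3′ on the strand of the gene. Mag had 3 annotated starts, of which the window of 1 is shown. For Cnp the window was chr11:100574689-100574938 (forward), for Mag chr7:30914864-30915113 (reverse), for Mog chr17:37023399-37023648 (reverse) and for Mobp chr9:120149492-120149741 (forward).
Cnp: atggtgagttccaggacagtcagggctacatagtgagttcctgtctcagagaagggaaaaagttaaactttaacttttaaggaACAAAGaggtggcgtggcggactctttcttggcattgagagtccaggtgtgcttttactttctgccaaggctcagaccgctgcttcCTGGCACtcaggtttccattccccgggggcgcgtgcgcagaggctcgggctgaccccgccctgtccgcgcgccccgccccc
Mag: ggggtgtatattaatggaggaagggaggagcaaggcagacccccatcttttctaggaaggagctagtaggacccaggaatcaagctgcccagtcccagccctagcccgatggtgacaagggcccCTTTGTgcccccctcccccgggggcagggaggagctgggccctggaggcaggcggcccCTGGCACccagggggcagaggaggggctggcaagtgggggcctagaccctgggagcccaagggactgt
Mog: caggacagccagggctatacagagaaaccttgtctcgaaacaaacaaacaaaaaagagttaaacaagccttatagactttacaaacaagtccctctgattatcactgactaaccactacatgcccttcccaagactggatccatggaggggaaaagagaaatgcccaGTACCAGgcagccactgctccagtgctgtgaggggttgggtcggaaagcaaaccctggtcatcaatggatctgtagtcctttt
Mobp: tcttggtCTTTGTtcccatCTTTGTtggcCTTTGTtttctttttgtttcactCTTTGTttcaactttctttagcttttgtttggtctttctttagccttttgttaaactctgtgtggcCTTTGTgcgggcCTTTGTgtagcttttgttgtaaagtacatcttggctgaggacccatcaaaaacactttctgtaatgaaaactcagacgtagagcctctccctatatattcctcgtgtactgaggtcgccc
Windows were found for 7 of the 8 genes and none was used for Mbp. One of the MYRF forms occurred in 3 of these 7 genes, at -81 in Cnp and at -68 in Mag (CTGGCAC) and at -83 in Mog (CTGGTAC), counted from the start of the gene. Over all 32851 upstream windows of the same length, 4.19% held CTGGCAC, 1.83% held CTGGTAC and 5.93% held at least 1 of them. Counted by window, 4 of the 9 windows of these 7 genes did. The Mag match was counted in overlapping windows, at -68 and at -9, and a further Mag window held none of the 4 motifs. ACAAAG occurred in 3 of the 7 genes, Cnp, Mag and Mobp, and in 4 of their 9 windows, beside 16.5% of all windows. Mobp held 6 matches. CAGCTG occurred in 13% of all windows and in none of these genes, and the windows of Cldn11, Mal and Ugt8a held none of the 4 motifs.

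The first question was whether exposure with or without nicotine changed the level of the myelin genes in females. Both exposed groups had higher levels of all 8 genes than the air controls, by 57.7 to 75.2% with nicotine and by 50.1 to 61.4% without it. All 8 genes passed the test in both comparisons (edgeR quasi-likelihood test, Benjamini-Hochberg adjusted p under 0.01), beside 1.98% of all 15158 genes tested that were called higher with nicotine and 5.03% without it. The 2 comparisons share their air controls. In bulk tissue, fewer or more oligodendrocytes and less or more RNA per oligodendrocyte cannot be told apart. In the air controls the 8 genes together took 0.626 to 0.739% of all counts, and they took 1.03 to 1.33% with nicotine and 0.851 to 1.33% without nicotine.

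Mbp, the gene of myelin basic protein, which holds the inner faces of the compacted membrane together, lies at chr18:82644538-82755029 (forward strand, mm9). It measured from 3946 to 4830.3 CPM (median 4426) in the 6 female air libraries. The 5 nicotine libraries held 6566, 6882, 7474, 7553 and 8525 CPM. The 5 no nicotine libraries held 5382, 5982, 6577, 7574 and 7696 CPM. Every exposed library was thus above every air library, and the group means were 4426 ± 318 (SD, n = 6), 7400.0 ± 751 (n = 5) and 6642 ± 1001 CPM (n = 5). The log2 fold change against air was 0.74 (SE 0.09, adjusted p = 0.000425) with nicotine and 0.59 (SE 0.09, adjusted p = 0.000841) without. Mobp, also a small basic protein of the compact sheath, ran from 316 to 411 CPM (median 395) in air. Its nicotine libraries were close together, at 619.6, 657, 677, 694 and 714 CPM, and gave the largest change of the 8 genes, 0.81 (SE 0.11, adjusted p = 0.000709). Its no nicotine libraries fell into 3 low and 2 high values, 475, 545, 549, 757 and 770.1 CPM, with a log2 fold change of 0.69 (SE 0.11, adjusted p = 0.000841).

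Mog, an immunoglobulin-like protein of the outermost myelin surface and a late marker of maturation, lay from 122 to 142 CPM (median 134) in air. With nicotine it reached 187, 211, 228, 237 and 257 CPM, and without nicotine 161, 186, 201, 247 and 269 CPM. The lowest exposed library, at 161 CPM, still exceeded the highest air library. The log2 fold changes were 0.74 (SE 0.11, adjusted p = 0.000827) and 0.66 (SE 0.11, adjusted p = 0.000917). Mag, the adhesion protein that faces the axon, lay from 297 to 339.9 CPM (median 310.4) in air. Its exposed libraries held 420.4, 499, 509, 522 and 578 CPM with nicotine and 369, 413, 485, 579 and 616 CPM without. Again no exposed library overlapped with air, and the changes were 0.68 (SE 0.11, adjusted p = 0.0016) and 0.64 (SE 0.11, adjusted p = 0.00112).

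Cnp encodes an enzyme of the uncompacted cytoplasm of the sheath and lay from 702 to 779 CPM (median 742) in air, the narrowest spread of the 8 genes in that group relative to its mean. Exposed females held 989, 1160.0, 1202, 1222 and 1247 CPM with nicotine and 886, 966, 1049, 1327 and 1407 CPM without. All of these values were above the air range, with changes of 0.66 (SE 0.10, adjusted p = 0.000923) and 0.61 (SE 0.10, adjusted p = 0.000934). Cldn11, the claudin of the tight junctions between myelin layers, ran from 323 to 414 CPM (median 368) in air. It measured 517, 589, 606, 621 and 640.1 CPM in the nicotine libraries and 456, 485, 517, 639 and 704 CPM in those without nicotine. Neither range touched the air range, and the changes were 0.68 (SE 0.10, adjusted p = 0.000816) and 0.60 (SE 0.10, adjusted p = 0.000934).

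Mal, a proteolipid of membrane rafts, was the exception to the separation of groups. It lay from 423 to 572 CPM (median 493) in air and at 659, 804, 836, 839 and 920.4 CPM with nicotine, which did not overlap, but the lowest of the no nicotine libraries (555, 636, 711, 898 and 961 CPM) was below the highest air library. The changes were 0.72 (SE 0.12, adjusted p = 0.00225) and 0.61 (SE 0.12, adjusted p = 0.00268), and the second was lost when no nicotine library 2 (0.50, adjusted p = 0.0103) or no nicotine library 3 (0.53, adjusted p = 0.0109) was left out. Ugt8a, the enzyme that makes galactosylceramide, the main glycolipid of myelin, lay from 173 to 207 CPM (median 184) in air. Its values were 260.1, 296, 306, 311 and 349 CPM with nicotine and 233, 237, 252, 366 and 397 CPM without. The no nicotine group split into 3 libraries nearer to the air range and 2 far above it, and the changes were 0.70 (SE 0.12, adjusted p = 0.00236) and 0.67 (SE 0.12, adjusted p = 0.00156).

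Groups did not overlap for 8 of the 8 genes with nicotine, beside 3.07% of all genes whose lowest nicotine library lay above the highest air library, and for 7 of the 8 without nicotine, beside 4.40%. The median log2 fold change of the 8 genes was 0.71 with nicotine and 0.63 without, whereas the medians over all genes tested were 0.0041 and 0.0092. Between the exposed female groups, 0 of the 8 genes were called by edgeR, 0 had an unadjusted p under 0.05 and 0 were called by DESeq2. That comparison called 0% of all genes at the adjusted threshold and 8.35% at an unadjusted p under 0.05. The log2 difference between nicotine and no nicotine was 0.16 (95% interval -0.05 to 0.36) for Mbp, the largest, and 0.04 (95% interval -0.24 to 0.31) for Ugt8a, the smallest. The widest of the 8 intervals was that of Mal, from -0.16 to 0.38.

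**Figure D1:**
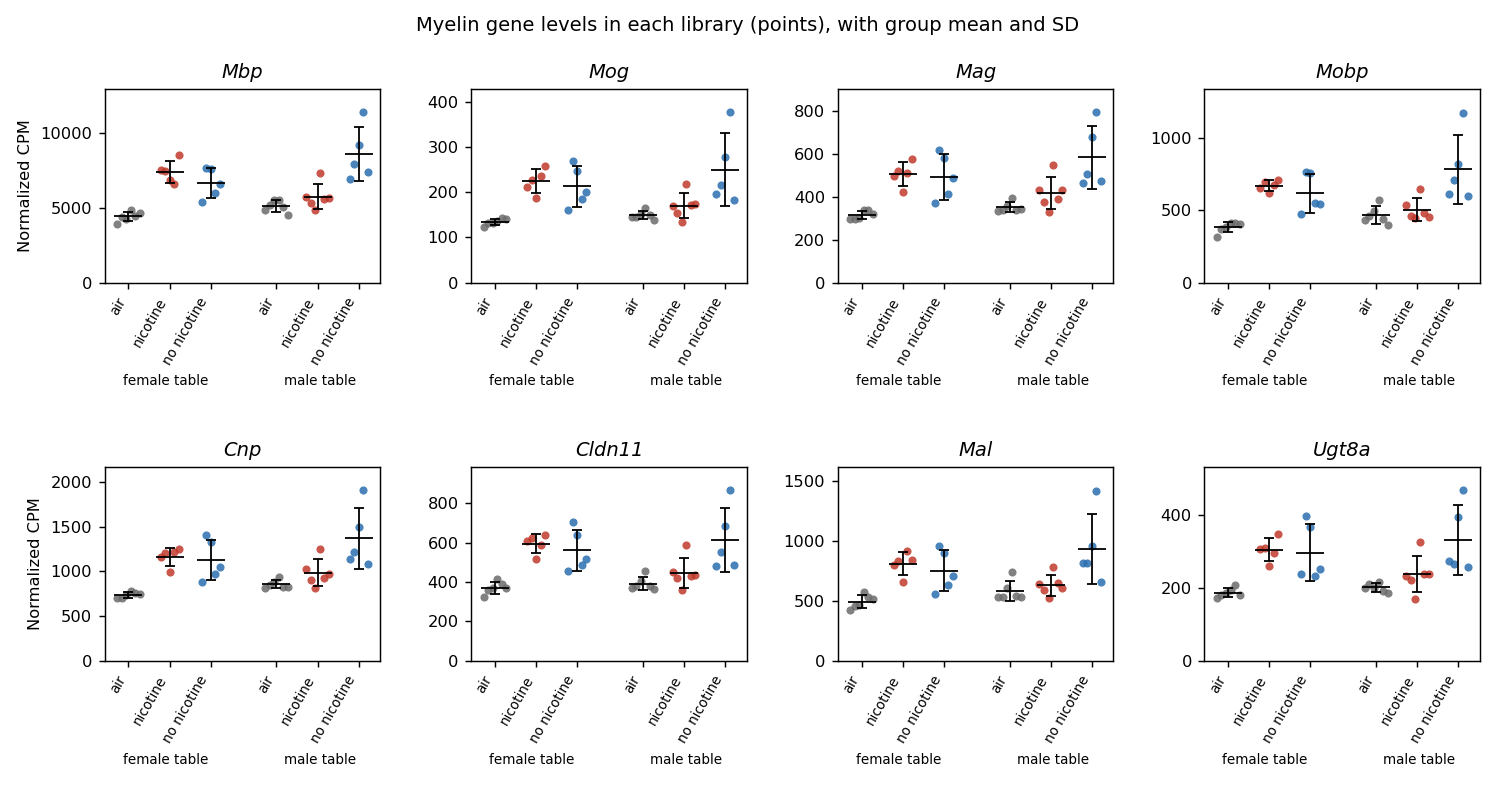
Normalized CPM of each of the 8 myelin genes (vertical axis, from 0) in every library of both tables, by treatment group; points are libraries, and the bars give the group mean and SD. In females both exposed groups sat above air, except 1 no nicotine library for Mal, whereas in the male table the no nicotine group lay clear of air for 7 of the 8 genes and the nicotine group overlapped with air for all 8.

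The same question was asked of the male table, which was fitted separately. Males exposed without nicotine had higher levels of all 8 genes, by 1.57-fold to 1.68-fold, and all 8 passed the test, beside 6.15% of all 15293 genes tested. Groups did not overlap for 7 of the 8, beside 5.48% of all genes. Males exposed with nicotine had fitted levels 1.08-fold to 1.19-fold those of air, and none of the 8 passed: 0 were called by edgeR, 0 had an unadjusted p under 0.05 and 0 were called by DESeq2. In that comparison edgeR called 0% of all genes higher, 7.02% were higher at an unadjusted p under 0.05, and DESeq2 called 0.915% in either direction. Groups did not overlap for 0 of the 8 genes with nicotine, beside 0.804% of all genes. Both male comparisons share the air controls.

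Mbp lay from 4519.6 to 5528 CPM (median 5122) in the 6 male air libraries. The 6 nicotine libraries ran from 4861 to 7329 CPM (median 5623), and 4 of them exceeded the highest air library. The 5 no nicotine libraries held 6957, 7392, 7956, 9203 and 11422 CPM, all above air. Group means were 5109 ± 389 (SD, n = 6), 5752 ± 837 (n = 6) and 8586 ± 1796 CPM (n = 5), so the spread was widest without nicotine. Against air the log2 fold change was 0.17 (SE 0.11, adjusted p = 0.516) with nicotine and 0.75 (SE 0.11, adjusted p = 0.000164) without. Mobp ran from 403 to 574 CPM (median 452) in air and from 447 to 651 CPM (median 472) with nicotine, where only 1 of 6 libraries exceeded the air range. Without nicotine it held 598, 613, 709, 825 and 1179 CPM. Its changes were 0.11 (SE 0.14, adjusted p = 0.786) with nicotine, the smallest of the 8, and 0.74 (SE 0.15, adjusted p = 0.00133) without.

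Mog lay from 139 to 166 CPM (median 148) in air and from 135 to 218 CPM (median 171) with nicotine, and its lowest nicotine library was below every air library. The no nicotine libraries held 183, 195, 216, 278 and 378 CPM. The highest of them was 2.07 times the lowest, and the changes were 0.19 (SE 0.14, adjusted p = 0.589) with nicotine and 0.74 (SE 0.15, adjusted p = 0.00135) without. Mag ran from 334 to 395 CPM (median 342) in air and from 331 to 549 CPM (median 409) with nicotine, where 3 of 6 libraries exceeded the air range. Without nicotine its values were 464, 473, 505, 677 and 797 CPM. It had the largest change of the 8 genes with nicotine, 0.25 (SE 0.13, adjusted p = 0.382), which did not pass, and a change of 0.73 (SE 0.13, adjusted p = 0.000623) without nicotine.

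Cnp ran from 819 to 937 CPM (median 839) in air, from 816 to 1255 CPM (median 953) with nicotine and at 1085, 1134, 1215, 1496 and 1909.9 CPM without nicotine. The nicotine range reached from just under the air range to above the lowest no nicotine library, with changes of 0.20 (SE 0.12, adjusted p = 0.466) and 0.68 (SE 0.12, adjusted p = 0.000682). Cldn11 ran from 364 to 454 CPM (median 380.2) in air and from 361 to 585 CPM (median 433) with nicotine. Without nicotine it held 482, 488, 553, 684 and 867 CPM, all above air, and its changes were 0.19 (SE 0.13, adjusted p = 0.549) and 0.65 (SE 0.13, adjusted p = 0.00178).

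Mal was again the gene whose no nicotine libraries overlapped with air. It ran from 530.5 to 741 CPM (median 537) in air, from 523 to 785 CPM (median 624) with nicotine and at 659.8, 813, 816, 956 and 1421 CPM without nicotine. Air library 37 stood above no nicotine library 7, and the changes were 0.12 (SE 0.14, adjusted p = 0.763) and 0.68 (SE 0.15, adjusted p = 0.00277). Ugt8a ran from 186 to 217 CPM (median 200.2) in air and from 169 to 326 CPM (median 236) with nicotine. Of the 6 nicotine libraries 5 exceeded the highest air library, more than for any other of the 8 genes, while 1 lay below the lowest. Without nicotine Ugt8a held 257, 264, 273, 394 and 468 CPM, and the changes were 0.24 (SE 0.15, adjusted p = 0.478) and 0.72 (SE 0.15, adjusted p = 0.00203).

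The median log2 fold change of the 8 genes in the male table was 0.19 with nicotine and 0.73 without, beside 0.0065 and 0.016 over all genes. Set directly against the no nicotine group, the nicotine group was lower for 8 of 8 genes, by a median of -0.52 on the log2 scale. The largest difference was that of Mobp, -0.63 (95% interval -0.94 to -0.32), and the smallest that of Cldn11, -0.46 (95% interval -0.74 to -0.18). None passed the threshold of 0.01 (adjusted p between 0.0144 for Mbp and 0.0846 for Ugt8a, edgeR), although all 8 had an unadjusted p under 0.05, beside 9.85% of all genes that were lower at that level. At the adjusted threshold edgeR called 0.248% of all genes in either direction. DESeq2 called 3 of the 8, Mbp (adjusted p = 0.000146), Cnp (0.00748) and Mog (0.00924), beside 2.96% of all genes. For each of the 8 genes, 5 of the 6 nicotine libraries lay below the lowest no nicotine library, and nicotine library 19 was the exception each time. Without library 19 edgeR called 2 of the 8 genes, Mbp and Mobp, and its calls over all genes rose from 38 to 246. Without no nicotine library 2 or library 7 it called 1 of the 8, Mbp. Without no nicotine library 5 the median was -0.35, with -0.31 for Cldn11, -0.35 for Mog and -0.36 for Mal, and edgeR called 0 of the 8 and 0 of all genes.

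Results were recomputed without the library labelled male nicotine 21. The median change with nicotine against air was then 0.19, with log2 fold changes from 0.12 for Mal (adjusted p = 0.809) to 0.27 for Mag (adjusted p = 0.410), and 0 of the 8 genes were called by edgeR or DESeq2 or had an unadjusted p under 0.05. Without nicotine all 8 stayed called, with a median of 0.73, while edgeR called 2004 genes over all. The median between nicotine and no nicotine was then -0.52, 0 of the 8 genes were called by edgeR and all 8 had an unadjusted p under 0.05, while the count over all genes went from 38 to 5. DESeq2 then called 1 of the 8 in that comparison, Mbp, in place of 3, and 276 genes over all in place of 452. For each of the 8 genes, 4 of the remaining 5 nicotine libraries lay below the lowest no nicotine library. Counts over the lists of other genes were the same against air with nicotine, and without nicotine they differed for 2 lists, with 4 striatal markers called higher in place of 3 and 1 choroid plexus marker in place of 2. Correlations and the order of libraries were not recomputed.

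**Figure D2:**
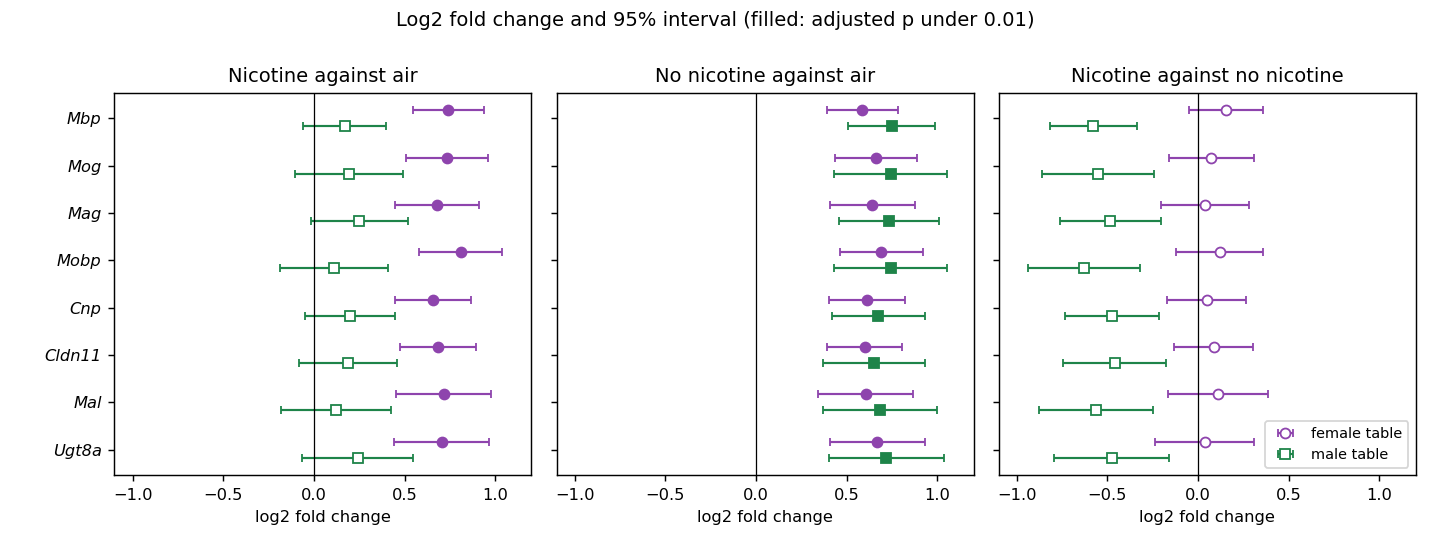
Log2 fold change (horizontal axis) with its 95% interval for the 8 myelin genes in 3 comparisons within each table; circles are females, squares are the male table, and filled symbols passed an adjusted p under 0.01. Filled symbols stood on the right for all genes without nicotine in both tables and for females with nicotine, and the male nicotine symbols were empty.

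A gene called in 1 table and not in the other is not thereby shown to differ, so the difference of the changes was tested in 1 fit of all 6 groups over the 15105 genes tested in both tables. With nicotine, the change in the male table minus that in females was negative for all 8 genes, from -0.44 (Mag, SE 0.18) to -0.71 (Mobp, SE 0.19) on the log2 scale. For Mbp the difference was -0.58 (SE 0.15, unadjusted p = 0.000512, adjusted p = 0.335, edgeR). None of the 8 passed after adjustment, with adjusted p from 0.335 to 0.744, and DESeq2 called 0 as well, while all 8 had an unadjusted p under 0.05. Over all genes 0% were called and 6.47% had an unadjusted p under 0.05. Without the library labelled male nicotine 21, added as an alternative after the data were seen, the differences ran from -0.42 to -0.69 and 0 were called. Without nicotine the differences were between 0.04 and 0.16, and 0 of the 8 genes were called by edgeR or by DESeq2 or had an unadjusted p under 0.05. There 0% of all genes were called and 4.91% had an unadjusted p under 0.05. The largest of these SEs was 0.21, for Ugt8a.

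Libraries that were high for one of the genes were in most cases high for the others. An exception was female nicotine library 5, the highest of its group for Mal (920.4 CPM) and the lowest for Mbp (6566 CPM). In female air, library 4 was the highest for 5 genes and library 5 for 3. Among females without nicotine, library 2 was the highest and library 3 the second highest for 8 of 8 genes, and library 1 was the lowest for 7. Among females with nicotine, library 6 was highest for 7 and library 3 lowest for 7. In the male table air library 37, nicotine library 19 and no nicotine library 5 were each the highest of their group for 8 of 8 genes, and nicotine library 17 was the lowest for 8. Male no nicotine library 4 was second for 8. The summed level of the 8 genes was 18442 CPM in male no nicotine library 5 and 14512 in library 4, and the other 3 libraries of that group held between 10935 and 12231. In male nicotine library 19 the sum was 11698 CPM, while the other 5 libraries of that group held 7642 to 9242 and the male air libraries 7312 to 9011. Leaving out library 19 lowered the median change with nicotine from 0.19 to 0.10, and leaving out no nicotine library 5 lowered the median change without nicotine from 0.73 to 0.55, with all 8 genes still called.

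**Figure D3:**
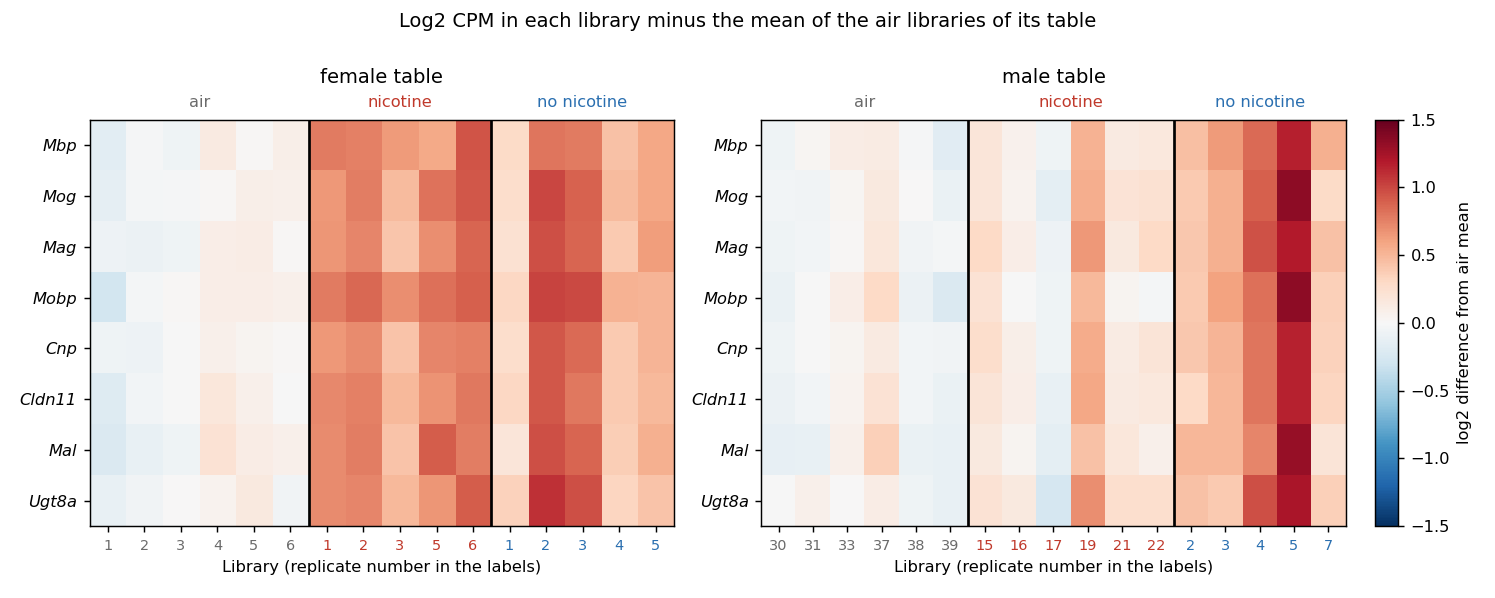
Log2 CPM of the 8 myelin genes (rows) in each library (columns, by replicate number), minus the mean of the air libraries of the same table, with red above and blue below that mean. Columns are nearly uniform from top to bottom, and male no nicotine library 5 and male nicotine library 19 are the darkest red of their groups.

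To see whether the genes also shifted against each other, each gene was expressed as its log2 CPM minus the mean of the other members in the same library. On this relative scale, only Cldn11 in the male table separated groups, being lower without nicotine than in air by -0.07 and higher with nicotine than without by 0.07. For the other 7 genes in both tables, and for Cldn11 in females, these ranges overlapped in every comparison. Mobp showed the largest relative difference in females, 0.11 with nicotine against air, with overlapping libraries.

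Levels of different genes were compared only per kilobase of exon, within the air controls. In female air libraries Mbp was highest at 527 ± 37.9 CPM per kb (SD, n = 6), followed by Cnp at 203 ± 8.24, Cldn11 at 201 ± 16.4, Mal at 178 ± 19.8, Mag at 130 ± 8.17, Mog at 79.1 ± 4.35, Mobp at 59.1 ± 5.55 and Ugt8a at 52.1 ± 3.39. Neighbours overlapped for Cnp and Cldn11, for Cldn11 and Mal, and for Mobp and Ugt8a. In male air libraries the order began with Mbp at 608 ± 46.3 and Cnp at 235 ± 12.6 CPM per kb, followed by Cldn11 at 212 ± 18.2 and Mal at 209 ± 30.2, and the ranges of Cnp, Cldn11 and Mal overlapped. The order depended on the length used: with the longest transcript in place of all exons, Mobp rose from 59.1 to 117 CPM per kb in females, above Mog, and Mbp from 527 to 923.

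The genes outside the set whose pattern over the libraries was most like the mean of the 8 were ranked by Pearson correlation of log2 CPM. Over the 16 female libraries the first 5 included Rnf13 (Pearson r 0.990, Spearman rho 0.985), Tspan2 (0.988, 0.991), Fa2h (0.986, 0.976) and Adamts4 (0.979, 0.965). Over the 17 libraries of the male table they included Fa2h (0.989, 0.985), Tspan2 (0.985, 0.961), Adamts4 (0.982, 0.985) and Abhd4 (0.979, 0.917). With group means removed, r for Fa2h was 0.940 in females and 0.972 in the male table. All genes were read from the same libraries and scaled alike, so these coefficients are a description only.

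Other genes of myelin and of the oligodendrocyte lineage were read by counts from lists. Of 17 other myelin proteins tested, 12 were called higher and 0 lower in females with nicotine (median 0.45), 11 and 0 in females without (0.36), 0 and 0 in the male table with nicotine (0.10) and 11 and 1 without (0.43). Pllp, a proteolipid of myelin membranes, changed by 0.44, 0.43 and 0.50 in the 3 comparisons with calls, and its male value with nicotine was 0.16 (adjusted p = 0.367). Plekhb1, a membrane-bound protein, gave 0.48, 0.37 and 0.43, and 0.11 for male nicotine (adjusted p = 0.468). The gene called lower was Omg, a glycoprotein that neurons also make, at -0.18 in the male table without nicotine. Beside these counts, 1.98%, 5.03%, 0% and 6.15% of all genes were called higher in the 4 comparisons, and 2.32%, 7.03%, 0% and 7.47% lower.

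Of 11 enzymes of myelin lipids, 7 were called higher in females with nicotine, 7 in females without, 0 in the male table with nicotine and 6 without, and 0 lower. Fa2h, which makes the 2-hydroxy fatty acids of myelin lipids, changed by 0.70, 0.66, 0.21 and 0.75 in that order, close to the values of Ugt8a, and its male nicotine value did not pass (adjusted p = 0.516). Gal3st1, which turns the product of Ugt8a into sulfatide, changed by 0.48, 0.35 and 0.47 where it was called, and its male nicotine value was 0.14 (adjusted p = 0.536). Cers2, the ceramide synthase of very long chains, changed by 0.52, 0.42 and 0.53, with 0.17 (adjusted p = 0.432) for male nicotine.

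Of 11 transcription factors of oligodendrocytes, 5, 8, 0 and 8 were called higher in the same order and 0 lower. Myrf, the factor that switches on myelin genes, changed by 0.49 and 0.44 in females and by 0.47 in the male table without nicotine, and its male nicotine value was 0.10 (adjusted p = 0.706). Nkx6-2, a homeobox factor, changed by 0.68, 0.94 and 0.91 where it was called. Tcf7l2, which the thalamus also expresses strongly, changed by 0.94, 1.09 and 0.71. Their male nicotine values were 0.44 (adjusted p = 0.0416) and 0.48 (adjusted p = 0.0416), which did not pass, although the nicotine libraries of both genes lay above all air libraries, as did those of 0.804% of all genes. Of 12 genes of oligodendrocyte precursors and newly committed cells, 3, 4, 0 and 5 were called higher, and 0, 1, 0 and 1 lower. Among them Bcas1 and Enpp6, which mark cells that have just begun to differentiate, changed by 0.54 and 0.59 in females with nicotine, by 0.41 and 0.54 in females without, and by 0.47 and 0.59 in the male table without. Their male nicotine values, 0.06 and 0.13, did not pass. Bmp4, a signal of that stage, changed by 0.53, 0.50 and 0.67 in these comparisons, beside 0.38 (adjusted p = 0.163) for male nicotine. C1ql1 changed by 0.29 in females without nicotine, the single comparison with air that called it, beside 0.20 (adjusted p = 0.11) in the male table without nicotine and 0.14 (adjusted p = 0.13) and 0.02 (adjusted p = 0.935) with nicotine. Tnr, an extracellular matrix protein, was the gene called lower, by -0.30 in females without nicotine and -0.21 in the male table without. With nicotine Tnr was at -0.25 (adjusted p = 0.0349) in females and -0.22 (adjusted p = 0.0334) in the male table, neither of which passed.

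Genes of the axon that meets the myelin were counted in the same way, and 2.32%, 7.03%, 0% and 7.47% of all genes were called lower in the 4 comparisons. Of 12 genes of the node and paranode, 0, 1, 0 and 1 were called higher and 1, 2, 0 and 3 lower. With 12 genes in the list, these counts are given as a description. Nfasc, whose glial form anchors the paranodal loops, was the gene called higher, by 0.34 in females without nicotine and 0.37 in the male table without. With nicotine it was at 0.36 (adjusted p = 0.0113) in females and 0.09 (adjusted p = 0.67) in the male table, neither of which passed. Nrcam and the nodal sodium channel gene Scn8a changed by -0.33 and -0.43 in females without nicotine and by -0.34 and -0.34 in the male table without, and Nrcam by -0.28 in females with nicotine. Scn8a was at -0.30 (adjusted p = 0.016) in females with nicotine, and the male nicotine values were -0.12 (adjusted p = 0.121) for Nrcam and -0.17 (adjusted p = 0.128) for Scn8a, none of which passed. Of the 7 tested genes of Nogo (Rtn4) and of the receptors that bind Nogo and Mag, 1, 1, 0 and 1 were called higher and 4, 4, 0 and 4 lower. Lingo1, a subunit of that receptor on neurons, changed by -0.64, -0.82 and -0.87, Rtn4rl1 by -0.48, -0.60 and -0.54, and Rtn4rl2 by -0.66 in females with nicotine and -1.15 in the male table without. In females without nicotine Rtn4rl2 averaged 20.9 CPM beside 42.0 CPM in air. The gene called higher was Ngfr, the p75 co-receptor that basal forebrain cholinergic neurons express, at 2.18, 2.93 and 2.06. With male nicotine none passed, at -0.29 (adjusted p = 0.165) for Lingo1, -0.13 (adjusted p = 0.331) for Rtn4rl1, -0.42 (adjusted p = 0.182) for Rtn4rl2 and 1.52 (adjusted p = 0.0416) for Ngfr, whose nicotine libraries lay above all air libraries, as did those of 0.804% of all genes.

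**Figure D4:**
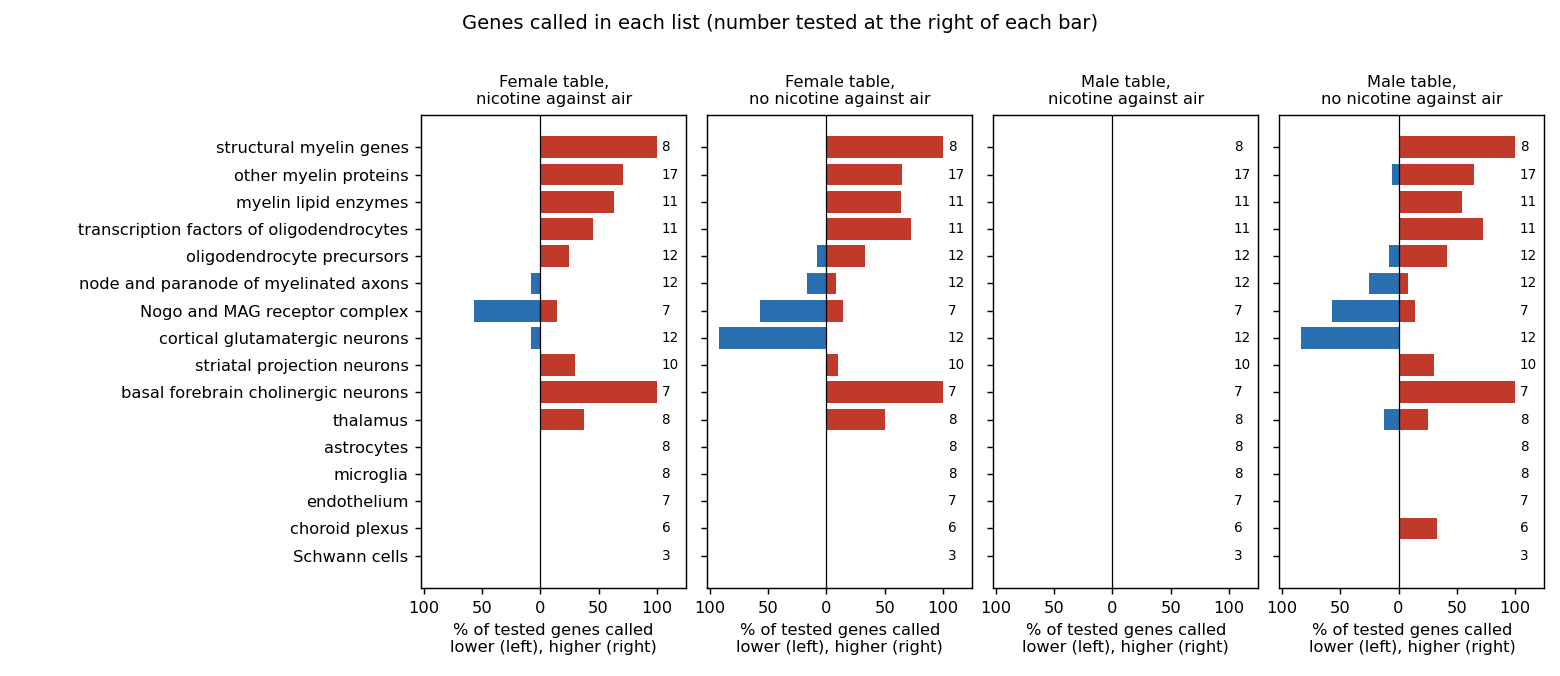
Share of the tested genes of each list called lower (blue, to the left) or higher (red, to the right) at an adjusted p under 0.01, for the 4 comparisons with air; the number tested stands at the right of each bar. All 8 structural myelin genes were called higher in 3 comparisons, and in the male nicotine panel no list held a call.

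Markers of other cells and regions were measured beside the myelin genes, and their part in the result was not tested. Slc17a7, the vesicular glutamate transporter of cortical neurons, was present in every library and ranged from 653 to 2816 CPM over all libraries. The 12 markers of cortical glutamatergic neurons had negative log2 fold changes in all 4 comparisons with air. They summed to 3111 to 3999 CPM in female air libraries, 2045 to 2857 with nicotine and 1244 to 2966 without, and to 2919 to 3454, 2086 to 2881 and 1039 to 2092 in the male table. Called lower were 1, 11, 0 and 10 of the 12, beside 2.32%, 7.03%, 0% and 7.47% of all genes, and called higher 0, with medians of -0.67, -0.91, -0.35 and -1.01. The 7 markers of basal forebrain cholinergic neurons were called higher 7, 7, 0 and 7 times, with medians of 1.73, 2.15, 1.06 and 1.60. They summed to 20.1 to 79.6 CPM in female air libraries, 83.5 to 195 with nicotine and 109 to 289 without, and to 34.9 to 82.0, 94.5 to 144 and 112 to 238 in the male table. In the male nicotine comparison 0 myelin genes and 0 cholinergic markers were called. The summed cholinergic range lay above that of air. The nicotine libraries lay above all air libraries for 5 of the 7 cholinergic markers, 0 of the 8 myelin genes and 0.804% of all genes. Of 10 striatal markers, 3, 1, 0 and 3 were called higher and 0 lower. All 10 had positive changes in all 4 comparisons, with medians of 0.73, 0.46, 0.36 and 0.74. Of 8 thalamic markers, 3, 4, 0 and 2 were called higher and 0, 0, 0 and 1 lower, with medians of 0.20, 0.39, 0.27 and 0.34. Tcf7l2, also in the list of oligodendrocyte factors, was among the thalamic calls in each comparison with calls. Over all genes, 1.98%, 5.03%, 0% and 6.15% were called higher.

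Within groups, the order of libraries by myelin sum was exactly opposite to that by cortical sum in females without nicotine. In the other groups it was not. Among females without nicotine, library 2 had the highest myelin sum (12821 CPM) and the lowest cortical sum (1244 CPM), and library 1 the lowest myelin sum (8523 CPM) and the highest cortical sum (2966 CPM). In the male table without nicotine, library 5 had the highest myelin sum with a cortical sum of 1690 CPM, whereas library 3 had the lowest cortical sum, 1039 CPM, with a myelin sum of 12231. The striatal markers summed to 5058 CPM in male no nicotine library 5, the highest of all libraries, but to 1879 CPM in library 4, the lowest of its group.

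**Figure D5:**
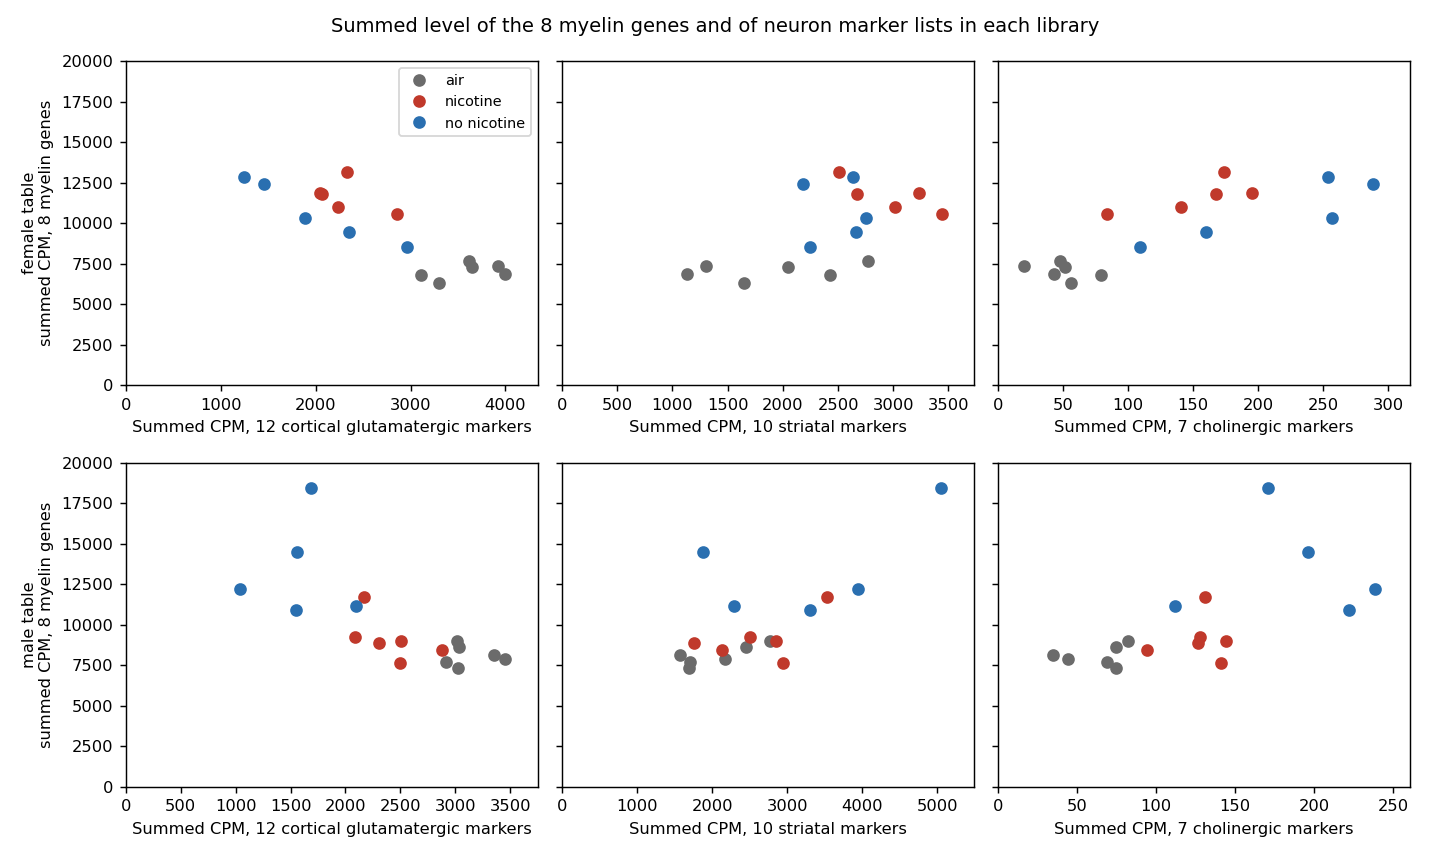
Summed CPM of the 8 myelin genes (vertical axis) against the summed CPM of markers of cortical glutamatergic, striatal and basal forebrain cholinergic neurons (horizontal axes) in each library, females above and the male table below, coloured by treatment. Air libraries stand at the lower right of the cortical panels and the lower left of the cholinergic panels, and male no nicotine library 5 stands at the top with 18442 CPM.

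Lists of other glia and of vessels gave few calls. Markers of astrocytes (8), microglia (8) and endothelium (7) held 0 calls in all 4 comparisons with air, and their summed ranges overlapped between groups, for example at 9868 to 13424 CPM for astrocytes in the female table and 10758 to 12812 CPM in the male table. Of 6 choroid plexus markers, 0, 0, 0 and 2 were called, and their sum reached 919.7 CPM in male no nicotine library 7 beside 31.3 CPM at most in male air. Schwann cells, which make peripheral myelin, were read from few markers: 3 of their 5 markers could be tested and 0 were called. No marker of any list was at 0 in all libraries of a group.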

How the data were processed

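Raw read counts per gene, as the authors deposited them, were used, and their normalized tables were not. Of 34 columns, 1 matched no labelled sample here and was not used. Per the submitters' processing notes, bcl2fastq, Bowtie, SAMtools, HTSeq and DESeq2 were used with mm9; their versions are left out here. The study describes single reads mapped to the transcriptome with PCR duplicates removed, and it left outlying samples out before its tests. Cldn11, with 1844 exon bases, held up to 17132 counts, more than its possible read starts on both strands. The deposited counts thus still held reads that share a start. Each table was fitted separately with edgeR 4.0.16 (R 4.3.3) by a quasi-likelihood test with TMM scaling. Genes with a CPM summed over libraries of at least 5 were kept, p-values were adjusted over all genes tested by Benjamini-Hochberg, and the threshold was 0.01. DESeq2 1.42.0 served as an alternative. CPM in the text are TMM-normalized, and adjusted p are edgeR's unless DESeq2 is named. Replicates were separate offspring. Genes outside the set were named by rule: from each list of the pathway, at most the 2 called higher and the 2 called lower with the smallest p in each comparison with air, and, in each table, the 5 genes with the highest correlation with the mean of the members. Some genes that the rule names are not reported here. The members and lists were chosen with earlier results of these data known. Intervals are 95%. The scripts were tested on simulated data. Figures were drawn with matplotlib 3.10.9.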

Additional observations from a re-analysis of the deposited data

Results flagged for a closer look

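In the 48 groups of values tested for a sample far from the others (Dixon's criterion at 95%), 2 stood out, where chance flags about 1 in 20 groups. Mbp in male nicotine library 19 was 7329 CPM, with a gap to the next library of 0.637 of the range of its group. Mag in male air library 37 was 394.8 CPM, with a gap of 0.636 of the range. Both libraries were also the highest of their group for all 8 genes.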

How the results depend on the processing

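All 8 genes kept their direction in the comparisons with air under each alternative run (other scaling, filters, DESeq2, fits of only the groups compared, and leaving out each library). Female replicate numbers left no visible pairing: the deviations of 14 same-number pairs correlated between -0.273 and 0.266 (median 0.014). Those of 71 other-number pairs correlated between -0.404 and 0.477 (median -0.004). Such correlations cannot exclude a pairing. With a replicate block, 5 of the 8 genes were called in females with nicotine (Mag, Mal and Ugt8a were not) and 7 without nicotine (Mal was not), and calls over all genes fell to 136 and 736. Leaving out single libraries, 7 to 8 of the 8 genes were called in females without nicotine, and 0 to 2 between the exposed male groups, where DESeq2 called 3, or 1 with the library labelled male nicotine 21 left out, an alternative added after the data were seen. Over all genes, leaving out single libraries gave 226 to 930 calls in females with nicotine (651 with all libraries; fewest without nicotine library 2), 823 to 2505 in females without (1829; fewest without no nicotine library 2), 0 to 2 for male nicotine (0) and 0 to 246 between the exposed male groups (38; most without nicotine library 19). DESeq2 called 1319 genes in females with nicotine, 2591 without, 140 for male nicotine and 452 between the exposed male groups, and fits of only the groups compared called 17 for male nicotine and 0 between the exposed male groups. The direction between the exposed female groups turned for 4 genes when single libraries were left out, with log2 values from -0.0031 to 0.17 for Mog, -0.041 to 0.13 for Mag, -0.020 to 0.14 for Cnp and -0.034 to 0.16 for Ugt8a. The cause of these changes was not tested.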
